A study of Homo sapiens with 8 samples.

Results

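The genes described here encode the proteins of the cytosolic ribosome. They were chosen by symbol: RPL or RPS followed by a number and at most the suffix A, X, L or Y1, together with RPLP0, RPLP1, RPLP2 and RPSA, without pseudogenes and without the RPS6K kinases. This gave 82 genes of the 19056 that could be named on the array, 49 of the large subunit and 33 of the small subunit. The symbol alone decided membership. Across 8 arrays the transcripts of these genes moved little by the brightest probe of each gene. On quantile-normalized arrays, none reached a 2-fold difference from the vehicle of its own series at any dose of either agent. Dimmer probes of some members did pass 2-fold, that of RPL15 at both top doses among them. Within the narrow range of the brightest probes RPLP2, measured by a single probe, rose with dose of both agents. RPL14, also measured by a single probe, and RPL13A were among the 5 lowest members at both top doses.

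The arrays came from A549 cells, an established line from a human lung adenocarcinoma. One series of 4 arrays held cells given vehicle or 1.25, 5 or 20 µg/mL EEDS, the ethanol extract of the seeds of *Descurainia sophia*, and the other held cells given vehicle or 3.75, 15 or 60 nM helveticoside, a cardiac glycoside, a class of compounds that inhibits the sodium-potassium pump. The labels give an exposure of 48 h, begun 24 h after plating, for all groups. The study's methods give an exposure of 24 h for the cells of the arrays, and which applies was not settled. Each dose was 1 array of RNA pooled from 3 cultures, so a single dose has no replicate error, and the agent cannot be told apart from the series in which it was run.

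A cytosolic ribosome is built from ribosomal RNA and 1 copy of almost every ribosomal protein, so the cell makes the proteins in matched amounts. Much of that matching is set at translation. Most ribosomal protein mRNAs begin with a C and an unbroken run of pyrimidines, the 5′ terminal oligopyrimidine or TOP motif, and LARP1 and the kinase complex mTORC1 decide whether such mRNAs are bound to ribosomes or held back. An array measures the amount of mRNA, not its translation. It also cannot separate less mRNA per cell from a smaller share of mRNA in a changed total.

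Start sites are shown for members that the results below turn on. RefSeq promoter sequences (GRCh38.p14) were matched by symbol for 65 of the 82 members. Each line below holds 30 bases, 10 before the annotated start of transcription and 20 from it, written 5′ to 3′ on the strand of the gene, with the pyrimidine run at the start in capitals. The first group is of genes that were low at the top doses or fell with dose.
RPL14, chr3:40457329-40457358, plus strand: ggtCTTCTTCCTTCTCgcctaacgccgcca
RPL13A, chr19:49487598-49487627, plus strand: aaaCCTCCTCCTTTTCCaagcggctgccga
RPLP1, chr15:69452808-69452837, plus strand: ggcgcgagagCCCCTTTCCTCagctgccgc
The next group is of genes that rose with dose or were high at the top doses.
RPLP2, chr11:809957-809986, plus strand: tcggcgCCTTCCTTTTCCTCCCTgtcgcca
RPS25, chr11:119018324-119018353, minus strand: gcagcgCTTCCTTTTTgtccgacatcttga
RPL38, chr17:74203668-74203697, plus strand: aagtctcgttCTTTTTCgtccttttccccg
RPL37A, chr2:216498834-216498863, plus strand: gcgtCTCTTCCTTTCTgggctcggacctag
RPS9, chr19:54200848-54200877, plus strand: gcttccgcgCCTCTTTCTCagtgaccgggt
RPS27L, a paralog of RPS27 that is a known p53 target, is shown as a member without such a run.
RPS27L, chr15:63157458-63157487, minus strand: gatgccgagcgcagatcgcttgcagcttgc

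All 8 of the low and high members shown carry the run, so its presence does not separate these 8. Other members among the lowest or highest at a top dose are not shown. Of those, RPL17, RPL6 and RPL27 had no such run, and RPL36, RPL21 and RPS4Y1 had one. A TOP-like start, defined as a C followed by at least 4 pyrimidines within 5 bases of the annotated start, was present in 54 of the 65 members (83.1%) and in 25.2% of the 27305 genes with a promoter sequence. At 20 µg/mL EEDS the median log2 ratio to vehicle was 0.05 in the 54 members with it and 0.10 in the 11 without it. At 60 nM helveticoside the medians were 0.10 and 0.12. In the promoter window (250 bases before the start to 50 after it), read on both strands, CCGGAAG, the core of many ETS factor sites, was found in 35.4% of the members and 12.2% of all genes. TATAAA was found in 9.23% and 14.0%, and AAGATGGC, the core of the YY1 site, in 9.23% and 3.52%. The reverse complement of CCGGAAG begins with pyrimidines, so it can overlap a TOP-like run. These are matches of letters and not sites shown to be used.

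The members gave bright signals. In all, 155 probes measured the 82 genes, and the brightest probe of a gene stood for it. Of the members, 81 were well above background on all 8 arrays. RPL27A was well above background on 4 of 8, so its values are only bounds and are not read. The members' share of the summed signal over all genes, before normalization, was 18.3, 18.4, 19.1 and 15.3% in the EEDS series (vehicle, then rising dose) and 20.2, 21.6, 21.7 and 19.5% in the helveticoside series. Both top-dose arrays had the lowest share of their series. RPS2, a protein of the mRNA entry site, was the brightest gene on every array, with a processed signal of 667000 to 742000, and quantile normalization therefore fixed the ratio of that probe at 0. Its other 2 probes gave log2 ratios of -0.36 and -0.06 at 20 µg/mL EEDS and of -0.42 and -0.29 at 60 nM helveticoside. For 3 members with repeated spots, RPL30, RPLP0 and RPS6, the SD between spots within an array was 0.041 to 0.140 on the log2 scale. Ribosomal protein genes have many processed pseudogenes, and a probe can bind their transcripts as well. All 10 measured epithelial and NRF2-type markers of A549 were well above background on all arrays, against 2 of 9 markers of blood, endothelial and fibroblast cells. Of 6 alveolar lineage markers 1 was well above background on all arrays and 3 on none, among them NKX2-1, which defines the lineage.

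As a family the members lay slightly above the other genes. The median log2 ratio of the 82 members was 0.14 at 1.25, 0.17 at 5 and 0.06 at 20 µg/mL EEDS, against 0.01, 0.01 and 0.02 for all 19046 genes tested. With helveticoside it was 0.05 at 3.75, 0.13 at 15 and 0.14 at 60 nM, against 0.01, -0.04 and -0.0039. The sign of the family median depended on how arrays were scaled: with 75th percentile scaling it was -0.0031 at 1.25 and -0.15 at 20 µg/mL EEDS, and with no scaling it was -0.10 at 3.75 nM helveticoside. Relative to the median of all genes under the same setting it was positive in all 10 settings at 4 of the 6 doses. The exceptions were 20 µg/mL EEDS, where it was -0.02 with all probes of a gene averaged, and 60 nM helveticoside, where it was -0.03 against the vehicle of the other series.

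The members differed from each other much less than genes at large. Past 1.5-fold, either way, were 1 of 82 members at 1.25 µg/mL EEDS (23.2% of all genes), 4 at 5 µg/mL (33.3%) and 5 at 20 µg/mL (46.3%). With helveticoside the counts were 0 at 3.75 nM (17% of all genes), 0 at 15 nM (30.9%) and 2 at 60 nM (40.9%). None of the 82 was past 2-fold at any dose, where 7.88, 15.8 and 27.8% of all genes were past it with EEDS and 7.69, 15.1 and 23.6% with helveticoside. With no scaling between arrays 30 members (36.6%) were past 1.5-fold at 5 µg/mL EEDS, near the 39.8% of all genes, and 1 or 2 members were past 2-fold at each EEDS dose. The SD of the log2 ratios over the members was 0.28 at 20 µg/mL EEDS and 0.23 at 60 nM helveticoside, against 1.09 and 1.02 over all genes. Bright genes as such varied less than the average gene. Among genes in the brightest 200 of both vehicle arrays, a group formed after the data were seen, the 118 other genes had an SD of 0.61 and 32.2% past 1.5-fold at 20 µg/mL EEDS. The 71 members in that group had an SD of 0.27 and 5.63%. At 60 nM helveticoside the values were 0.57 and 17.8% for the other genes and 0.22 and 1.41% for the members.

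**Figure D1:**
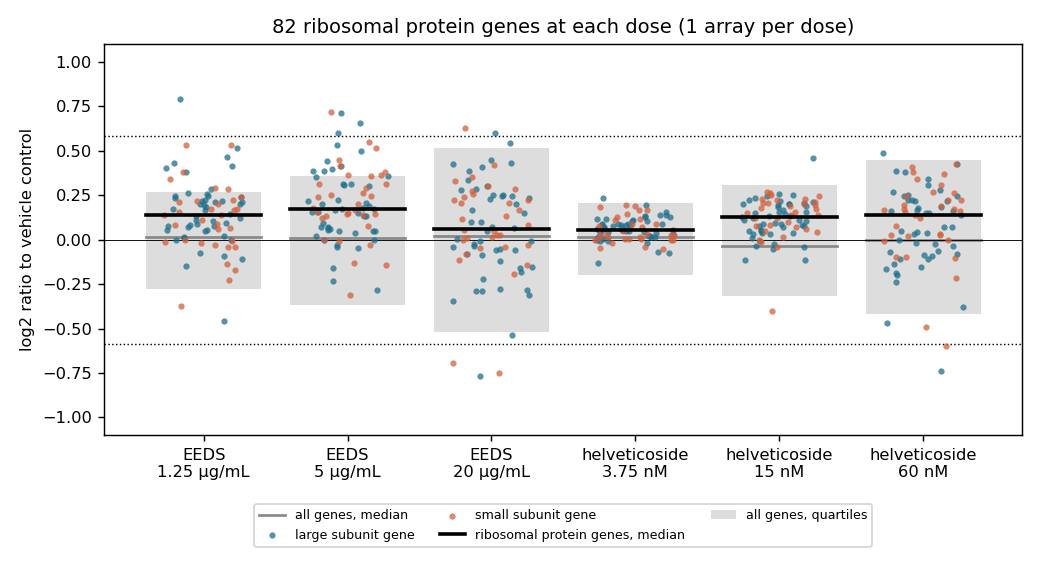
Log2 ratio to vehicle (vertical axis) of each of the 82 ribosomal protein genes at the 6 doses (horizontal axis), 1 array per dose, with large-subunit genes in blue and small-subunit genes in orange. Black lines are the medians of the members, grey boxes the quartiles and grey lines the medians of all 19046 genes, and dotted lines mark 1.5-fold; at 20 µg/mL EEDS 5 members lie beyond the dotted lines, at 60 nM helveticoside 2, and the sign of the black lines at 1.25 and 20 µg/mL and at 3.75 nM changes with another scaling of the arrays.

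The only comparison without a drug was between the vehicle arrays of the series. There the members had a median log2 difference (helveticoside vehicle minus EEDS vehicle) of -0.05 and an SD of 0.31, and 3 of 82 were past 1.5-fold (24.2% of all genes): RPL27A, RPL3L and RPS3. Over the 81 members well above background on all arrays the SD was 0.25. For 40 of the 82 members the vehicle arrays differed by more than 20 µg/mL EEDS differed from its vehicle, and for 38 by more than 60 nM helveticoside did. The median size of the difference was 0.14 between vehicles, 0.20 at 20 µg/mL EEDS and 0.17 at 60 nM helveticoside.

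The order of the members was much alike with both agents at the top doses, which have separate vehicles. Across the 82 members the log2 ratios at 20 µg/mL EEDS and 60 nM helveticoside correlated with Pearson's r = 0.84 and Spearman's rho = 0.77, and across all genes with r = 0.78 and rho = 0.77. At the middle doses r was 0.70 over the members and 0.66 over all genes, and at the lowest doses 0.23 and 0.27. Without RPL27A, over the 81 members well above background, r was 0.36 at the lowest doses. These describe genes measured on the same arrays, which are not independent replicates. In the sign of the ratio, 44 members were higher than vehicle at both top doses (53.7%, against 40.1% of all genes), 22 lower at both (26.8 against 36.4%), and 15 higher at one and lower at the other (18.3 against 23.2%). RPL10A, the protein of the L1 stalk next to the exit site for transfer RNA, was named after its values were seen; it had log2 ratios of 0.29 at 20 µg/mL and -0.20 at 60 nM by its brighter probe. Its other probe, also well above background on all 8 arrays, gave -0.27 and -0.25, so the opposite signs rest on 1 probe of 2. By the brighter probe its slopes with dose step differed by 0.14 ± 0.06 (SE; limma, unadjusted p = 0.04, adjusted p = 1). By limma no member had a different slope with EEDS and helveticoside after adjustment (0% of all genes in either direction), and RPL10A was the only one at an unadjusted p under 0.05 (2.76% of all genes).

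**Figure D2:**
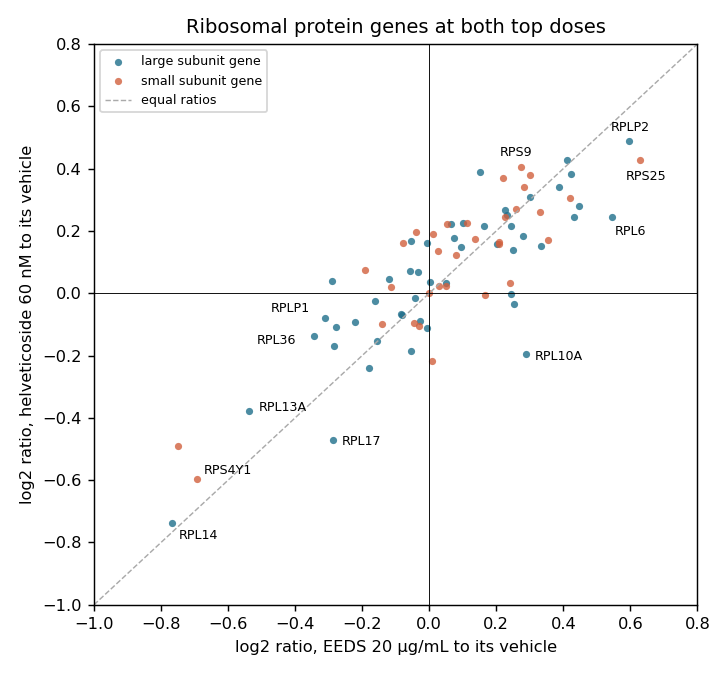
Log2 ratio to vehicle at 60 nM helveticoside (vertical axis) against that at 20 µg/mL EEDS (horizontal axis) for the 82 ribosomal protein genes, 1 point per gene. RPL14, RPS4Y1 and RPL13A lie at the lower left, RPLP2 and RPS25 at the upper right, and RPL10A lies to the lower right, with opposite signs by its brighter probe only.

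Of the 5 lowest members at each top dose, 4 were shared by both agents. RPL14, a large-subunit protein, had log2 signals of 16.72 on the vehicle array and 16.83, 16.48 and 15.95 at 1.25, 5 and 20 µg/mL EEDS, and of 16.77, 16.79, 16.65 and 16.03 from vehicle to 60 nM helveticoside. Both top-dose arrays were lower than all other 6 arrays. This was 0.59-fold and 0.60-fold of vehicle, and the vehicles themselves differed by 0.05 on the log2 scale. These values rest on a single probe. RPL14 did not pass the trend test described below, with an adjusted p of 0.11 for EEDS and 0.16 for helveticoside by limma.

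RPL13A is known beyond the ribosome as the subunit of an inhibitory complex that silences inflammatory mRNAs. Its log2 signals were 18.22, 18.36, 18.17 and 17.68 with EEDS and 18.24, 18.32, 18.28 and 17.86 with helveticoside. RPL13A has 3 probes, and all 3 gave lower values at the top doses, with log2 ratios of -0.54, -0.54 and -0.81 for EEDS and of -0.38, -0.53 and -0.56 for helveticoside. RPS4Y1, the Y-linked copy of the small-subunit gene RPS4X, had log2 ratios of -0.69 and -0.60 at the top doses, but 0.17 at 20 µg/mL EEDS with no scaling between arrays. RPS4X itself had -0.14 and -0.10.

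A fit to dose counted in steps gave no call for these genes, and a fit linear in dose did. With dose entered linearly, 4 members were called falling with EEDS, among them RPL13A, RPL14 and RPS4Y1 (5.65% of all genes fell in that fit), and RPL14 was called with helveticoside (2.26%; limma, adjusted p under 0.05 over all genes). In a fit restricted to genes that every array detected well above background, RPL14 was also called falling with EEDS. RPL17, which lines the peptide tunnel, also belonged to the 5 lowest at 60 nM helveticoside, with a log2 ratio of -0.47, against -0.29 at 20 µg/mL EEDS. Its 3 probes lay between -0.57 and -0.47 at 60 nM. RPL36, a further large-subunit protein, completed the 5 lowest at 20 µg/mL, with -0.34, against -0.14 at 60 nM.

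Trends were tested by limma on the log2 signal of all 19046 genes over the 8 arrays, with dose as steps from 0 to 3 and a slope for each agent, and p-values were adjusted over all genes. Arrays around the fitted lines stood in for replicates. With EEDS 3 members rose, RPLP2 and RPL38 among them (7.27% of all genes rose), and 1 fell, RPLP1 (7.85% fell). With helveticoside 4 rose, RPLP2, RPS9 and RPL37A among them (5.48%), and none fell (5.8%), with 1 falling at an unadjusted p under 0.05, RPL14. At an unadjusted p under 0.05, 15 members had a trend with EEDS and 17 with helveticoside, against 33.4 and 29.8% of all genes. The members called were thus not more frequent than genes at large.

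RPLP2 was the member with the lowest p for both agents. It was measured by a single probe, as were RPLP1, RPL38 and RPS25. RPLP2 encodes P2, an acidic protein that pairs with P1 on the lateral stalk, where the ribosome binds its translation factors. Its log2 signal was 17.52, 17.77, 17.92 and 18.12 from vehicle to 20 µg/mL EEDS and 17.47, 17.57, 17.69 and 17.95 from vehicle to 60 nM helveticoside. Each array was higher than the one at the dose before it, and the vehicles differed by -0.06. The slope was 0.19 ± 0.03 per dose step (SE; adjusted p = 0.017) for EEDS and 0.16 ± 0.03 (adjusted p = 0.028) for helveticoside by limma, and the top doses were 1.51-fold and 1.4-fold of vehicle. The slope was positive under all 19 alternative settings for both agents, and the call held under 14 of them for EEDS and 8 for helveticoside. For EEDS it was lost most clearly with 75th percentile scaling (slope 0.11, adjusted p = 0.32), and also without the vehicle (0.13) or the 20 µg/mL array (0.15), with 1 series only (0.10) and with linear dose (0.086). It was lost for helveticoside most clearly without the 60 nM array (0.29).

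RPLP1, the partner of RPLP2 on the stalk, went the other way with EEDS. Its log2 signal was 18.61, 18.52, 18.45 and 18.30, a slope of -0.10 ± 0.02 per step (limma, adjusted p = 0.039), ending at 0.81-fold of vehicle. With helveticoside it was 18.69, 18.72, 18.64 and 18.61, and its slope of -0.03 ± 0.02 did not pass (adjusted p = 0.42). The call for EEDS was lost without any one of the 8 arrays (adjusted p 0.060 to 0.29) and under every other change of background correction or scaling that was tried. RPLP0, which anchors P1 and P2, had log2 ratios of 0.00 and 0.04 at the top doses, and RPL12 at the base of the stalk had -0.08 and -0.07. The members of the stalk therefore did not share a direction.

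RPL38, RPS9 and RPL37A had smaller slopes. RPL38, which is needed for translation of a set of Hox mRNAs in the mouse embryo, had a slope of 0.10 ± 0.02 with EEDS (limma, adjusted p = 0.039), from a log2 signal of 18.39 to 18.67, and its slope turned to -0.02 with 75th percentile scaling. RPS9, which lies near the mRNA entry, had 0.14 ± 0.03 with helveticoside (adjusted p = 0.034), from 16.70 to 17.11, and RPL37A, a zinc-finger protein of the large subunit, had 0.09 ± 0.02 (adjusted p = 0.044), from 18.21 to 18.47. The calls of RPL38, RPS9 and RPL37A were each lost without any one of the 8 arrays, with adjusted p-values of 0.055 to 0.31 over the 3 genes. With the 4 arrays of 1 series alone, no member was called.

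**Figure D3:**
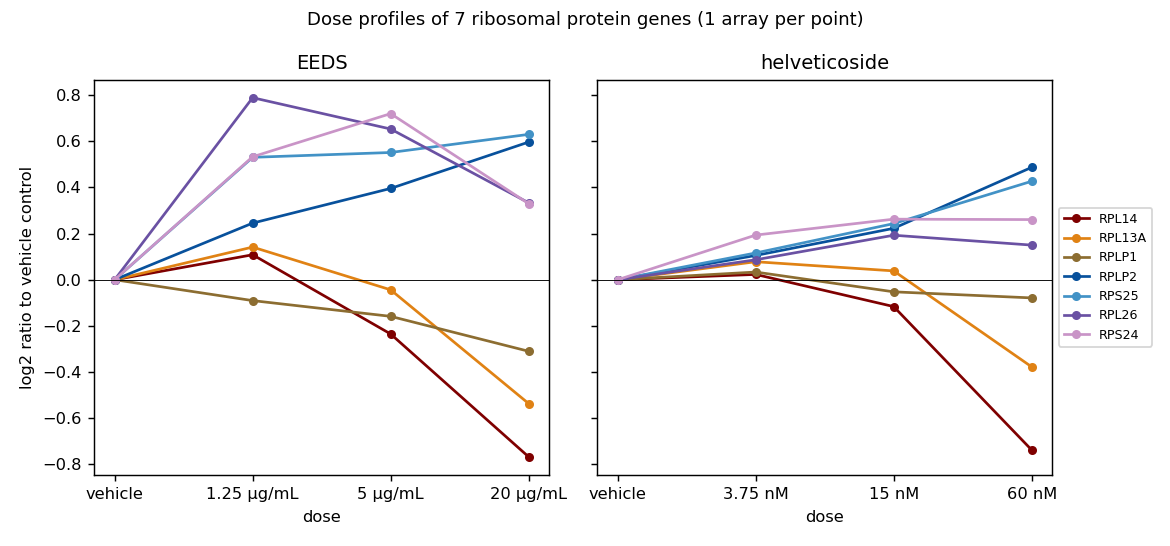
Log2 ratio to vehicle (vertical axis) of 7 ribosomal protein genes from vehicle to the top dose (horizontal axis) with EEDS (left) and helveticoside (right), each point 1 array. RPLP2 is higher at each dose than at the one before in both series, RPL14 and RPL13A drop at the top dose, and RPL26 and RPS24 are highest at 1.25 and 5 µg/mL EEDS.

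Of the 5 highest members at each top dose, 2 were shared, RPLP2 and RPS25. RPS25, which is needed for initiation at many viral internal ribosome entry sites, had log2 signals of 17.17, 17.70, 17.72 and 17.80 with EEDS and 17.28, 17.39, 17.52 and 17.70 with helveticoside. All 6 treated arrays lay above both vehicles, and the top doses were 1.55-fold and 1.34-fold of vehicle, but the slopes did not pass (limma, adjusted p = 0.07 and 0.15). RPL6, a large-subunit protein, had 1.46-fold and 1.19-fold at the top doses, and both of its probes gave higher values, with log2 ratios of 0.36 and 0.54 for EEDS. RPL23A, which docks chaperones and the signal recognition particle at the tunnel exit, had 1.35-fold and 1.18-fold by its brightest probe, while its other 3 probes gave log2 ratios of 0.20, 0.07 and -0.41 at 20 µg/mL EEDS and of 0.26, 0.20 and -0.29 at 60 nM helveticoside. RPL27 had 1.11-fold and 1.31-fold.

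Several members were highest below the top dose of EEDS. RPL26, at the tunnel exit and known to bind p53 mRNA, had log2 signals of 17.23, 18.02, 17.88 and 17.56, so its ratio was 0.79 at 1.25 µg/mL and 0.33 at 20 µg/mL. Its second probe gave only 0.20 at 1.25 µg/mL. RPS24, a gene mutated in Diamond-Blackfan anaemia, had 16.79, 17.33, 17.51 and 17.12. RPL21 had log2 ratios of 0.46, 0.71 and 0.45 over the rising doses, and all 9 of its probes were highest at 5 µg/mL, between 0.58 and 0.85. RPL26, RPL21, RPS24 and RPL23A were the 4 members past 1.5-fold at 5 µg/mL. In all, 61 of 82 members were lower at 20 than at 5 µg/mL EEDS (46.5% of all genes), with a median difference of -0.13. Between 15 and 60 nM helveticoside 44 of 82 were lower (44.5% of all genes), with a median of -0.01. On the sign of the ratio, 34 members were higher than vehicle on all 6 treated arrays (17.1% of all genes) and 0 were lower on all 6 (16.5%). The 3 ratios of an agent share 1 vehicle array, so these counts also carry the error of that array.

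By place in the ribosome, the groups moved by little. RPL5 and RPL11, which with 5S rRNA form the particle that can bind MDM2 and stabilise p53, had log2 ratios of -0.18 and -0.28 at 20 µg/mL EEDS and of -0.24 and -0.17 at 60 nM helveticoside. Both were higher than vehicle at 1.25 and 5 µg/mL EEDS, by 0.13 to 0.21, and neither had a trend (limma, adjusted p of 0.50 to 0.87). The 4 proteins near the catalytic centre, RPL3, RPL4, RPL8 and RPL10, lay between -0.06 and 0.25 at 20 µg/mL. At 60 nM they lay between 0.07 and 0.22, and none had a trend after adjustment. Of the 8 proteins of the peptide tunnel and its exit, 4 were above and 4 below vehicle at 20 µg/mL. They ranged from -0.29 for RPL17 to 0.43 for RPL23A, and none had a trend after adjustment. The others of that group, RPL19, RPL22, RPL31, RPL35 and RPL39, had -0.04, 0.23, -0.28, -0.01 and 0.39.

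In the small subunit, RPS3, RPS15 and RPS23 of the mRNA entry and decoding site had -0.04, 0.14 and 0.11 at 20 µg/mL EEDS and 0.20, 0.17 and 0.23 at 60 nM helveticoside. RPS3 differed between the vehicles by -0.62, more than at any dose. At the mRNA exit and platform, RPSA had 0.35 and 0.17, RPS14 -0.08 and 0.16, and RPS28 -0.03 and -0.11. RPS26, which reads the bases ahead of the start codon, had log2 ratios of -0.38, -0.31 and 0.01 over the EEDS doses by its brightest probe. Over the helveticoside doses that probe gave -0.04, -0.40 and -0.22. The other RPS26 probes gave -0.36 and -0.45 at 20 µg/mL EEDS, so the value near vehicle there rests on 1 probe. No gene of these groups had a trend after adjustment.

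Diamond-Blackfan anaemia is an inherited failure of red cell production. A list of 11 members mutated in it was used, which need not be complete. These 11 had a median log2 ratio of 0.01 at 20 µg/mL EEDS and 0.07 at 60 nM helveticoside, with 7 above and 4 below vehicle at both doses. They ranged from -0.28 to 0.33 and from -0.24 to 0.37, and none had a trend after adjustment. Of those not yet named, RPS7, RPS10, RPS19, RPL15 and RPL35A had -0.12, -0.19, 0.01, 0.25 and 0.24 at 20 µg/mL. RPS6, the substrate of S6 kinases, had -0.05 and -0.10 at the top doses. RPS27A, made as a fusion with ubiquitin, had 0.30 and 0.38. Neither passed the test. Without RPL27A, the 27 members that the naming rule leaves out lay between -0.29 and 0.30 at 20 µg/mL EEDS and between -0.20 and 0.31 at 60 nM helveticoside, with 17 above and 10 below vehicle at each dose.

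Among paralogs with restricted or regulated expression, RPL39L had a log2 signal of 11.65 on the EEDS vehicle and log2 ratios of 0.05, 0.50 and -0.06 with EEDS and 0.20, 0.46 and 0.17 with helveticoside, highest at the middle dose of both. RPS27L had 0.24, 0.41 and 0.08 with EEDS and 0.03, -0.04 and 0.12 with helveticoside. RPL3L, a paralog of striated muscle, was dim, with log2 signals of 6.56 and 7.55 on the vehicle arrays, and was higher on every treated array, by 0.13 to 0.43. It differed by 0.99 between the vehicles. RPL10L, a testis paralog without introns, had log2 ratios of -0.22 and -0.09 at the top doses against 0.25 and 0.14 for RPL10. Its coding sequence is close to that of RPL10, and whether its probe binds RPL10 mRNA was not tested. No paralog of this group had a trend after adjustment, although RPL3L rose at each dose step with both agents (limma, adjusted p = 0.16 for each).

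Probes of the same gene disagreed in a regular way. Of the members, 39 had at least 2 probes well above background on the arrays compared. In 31 of the 39 the dimmest probe gave a lower ratio than the brightest at 20 µg/mL EEDS, and in 31 at 60 nM helveticoside, with 26 in both. Without RPS2, whose brightest probe has a fixed ratio, it was 30 of 38 with each agent. The background was 38 and 41% of the 2468 genes with several such probes. This comparison was chosen after the data were seen. The median of the members was 0.05 by their brightest and -0.18 by their dimmest probe at 20 µg/mL EEDS, and 0.04 and -0.09 at 60 nM helveticoside. The dimmest probes of all genes went the other way, with medians of 0.19 against 0.06 and of 0.11 against 0.02.

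RPL15, a Diamond-Blackfan anaemia gene, had the widest gap with EEDS. Its bright probe (mean log2 signal 17.70) gave log2 ratios of 0.24, 0.18 and 0.25 over the EEDS doses, and its dim probe (13.19) gave 0.05, -0.32 and -1.13. With helveticoside the bright probe gave -0.01, 0.11 and -0.03 and the dim probe -0.06, -0.21 and -1.02. RPL13 followed the same course, with -0.01 and -0.11 at the top doses by its bright probe and -0.883 and -1.002 by its dim probe. RPS23 had 0.11 and 0.23 by its bright and -0.87 and -0.62 by its dim probe.

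RPS29, which binds zinc in the small subunit, had 4 probes, and the 3 bright ones gave log2 ratios of 0.15, 0.16 and 0.28 at 20 µg/mL EEDS and of 0.31, 0.34 and 0.40 at 60 nM helveticoside. Its dim probe (mean log2 signal 10.20) gave -0.46 and -0.94. The range over probes was more than 2-fold in 1 of 39 members at each top dose, RPL15 with EEDS and RPS29 with helveticoside, against 16.9 and 12.4% of all genes. Which transcript each probe binds was not tested. RPL39 had 1 probe of 4 with a log2 ratio of -1.05 on the 15 nM array only, where the other 3 gave 0.18, 0.19 and 0.21.

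**Figure D4:**
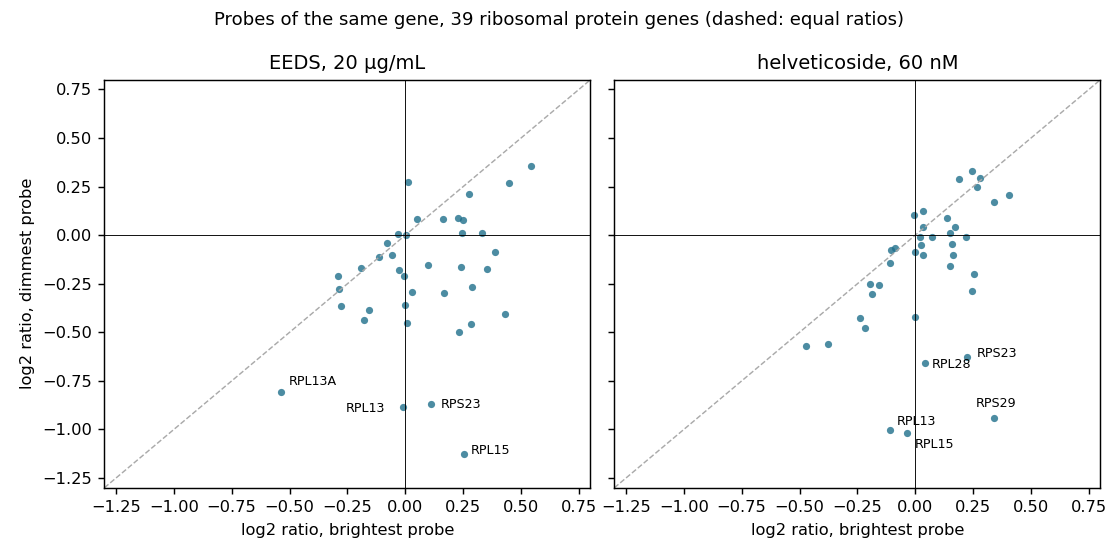
Log2 ratio to vehicle of the dimmest probe (vertical axis) against that of the brightest probe (horizontal axis) of the same gene, for 39 ribosomal protein genes at 20 µg/mL EEDS (left) and 60 nM helveticoside (right), 1 point per gene. In 31 of 39 genes in each panel the point lies below the dashed line of equal ratios, and RPL15, RPL13 and RPS23 lie far below it in both.

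Of 8 ribosomal protein genes with other symbols, 1 had a trend. RPL22L1, the paralog of RPL22, rose with both agents, from a log2 signal of 15.44 on the vehicle to 16.06, 16.36 and 16.77 with EEDS, and from 15.50 to 15.68, 15.84 and 16.25 with helveticoside. Its slopes were 0.43 (limma, adjusted p = 0.013) and 0.24 (adjusted p = 0.031), while RPL22 had slopes of 0.08 and 0.09 that did not pass (adjusted p = 0.32 and 0.30). RACK1, a small-subunit scaffold, had log2 ratios of -0.76 and -0.77 at the top doses and RPL7L1 had 0.61 and 0.70; neither passed the test.

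On other gene lists of translation, the counts below stand against 7.27% of all genes rising and 7.85% falling with EEDS and 5.48 and 5.8% with helveticoside. Of 76 mitochondrial ribosomal protein genes, which serve the separate ribosome of the organelle, 17 fell and 1 rose with EEDS and 10 fell and 1 rose with helveticoside by limma, with medians of -0.24 and -0.30 at the top doses. MRPS34 had a log2 ratio of -2.24 and MRPL49 of 1.504 at 20 µg/mL EEDS. Of 15 genes other than ribosomal proteins whose mRNAs also have a TOP motif, 3 fell with EEDS and 2 with helveticoside and none rose. HNRNPA1, which is not a translation factor, was among those that fell with each agent. EEF2, the elongation factor that moves the ribosome along the mRNA, had log2 ratios of -1.08 and -0.98 at the top doses. Of 100 ribosome biogenesis factors 11 rose and 7 fell with EEDS, and 5 rose and 1 fell with helveticoside, with DDX10 at 2.84 and MYBBP1A at -1.77 at 20 µg/mL. Of 16 genes of mTORC1 and TOP mRNA control 3 rose and 3 fell with EEDS and 1 rose and 3 fell with helveticoside. LARP1B, a paralog of LARP1, rose from a log2 signal of 9.74 to 12.39 with EEDS and from 9.64 to 12.03 with helveticoside, whereas LARP1 itself, named after its values were seen, had log2 ratios of -0.34 and 0.04 at the top doses.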

How the data were processed

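RNA of A549 cells was hybridised to 8 one-colour arrays in 2 series, and RNA from 3 cultures was pooled per array. The labels give 48 h of exposure and the study's methods 24 h. The labels name Cy5, while the deposited scanner files hold the green channel. The deposited values are intensities from Agilent Feature Extraction; the authors background-subtracted the processed signal. The deposited value table, intensities that the authors had quantile-normalized, was an alternative. Control and outlier spots were left out, spots of a probe averaged and arrays quantile-normalized together. Signals under 1.4 times the local background were raised to the lowest detected signal of the array where they lay below it, before log2. The brightest probe stood for a gene, named through its accession in RefSeq (GRCh38.p14): 24812 of 34127 probes matched 19056 genes, and 19046 were tested. The signal covered 44495 spots per array. Of the spots kept, without control and outlier spots, 57.0 to 66.9% were well above background. The number of arrays limits the precision. Ratios are to the vehicle of the same series. Trends used limma 3.58.1 (R 4.3.3, trend and robust estimation, Benjamini-Hochberg over all genes, threshold 0.05), checked on simulated data. There 66% of the larger and 34% of the smaller slopes added to genes drawn from all genes were found. Of 106 calls, 6 were of unchanged genes. Both sizes were larger than the slopes per dose step given here for members, so a member without a call may still have a trend. Alternatives covered background correction, scaling, source of the values, detection, probe choice, control array, arrays left out, variance moderation and dose scale. The members and gene lists were chosen with earlier results of these data known. Named genes were the 5 highest and lowest members per top dose, all with a trend, all on role lists, and those with probes over 2-fold apart. Members not listed by name are covered by the counts, and some members that the rule names are not reported here.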

Additional observations from a re-analysis of the deposited data

Results flagged for a closer look

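By its brightest probe RPL28, a large-subunit protein, was lower than vehicle on all 3 EEDS arrays and higher on all 3 helveticoside arrays. Its log2 ratios were -0.15, -0.05 and -0.29 with EEDS and 0.06, 0.08 and 0.04 with helveticoside. The other 2 RPL28 probes well above background went against this at some doses, with 0.02 and 1.26 at 1.25 µg/mL EEDS and -0.60 and -0.66 at 60 nM helveticoside. At 5 µg/mL EEDS they gave -0.34 and 0.24. They had the sign of the brightest probe at 20 µg/mL EEDS, with -0.94 and -0.21. The same held at 3.75 nM helveticoside, with 0.08 and 0.99, and at 15 nM, with 0.01 and 0.74. By the brightest probe the slope with EEDS minus that with helveticoside was -0.092 ± 0.05 per dose step (SE; limma, unadjusted p = 0.12, adjusted p = 1), so the difference did not pass the test.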

How the results depend on the processing

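No paired analysis was possible because each dose was 1 array, so the groups share no more than 1 replicate number. Of the medians and counts, 159 of 238 alternative values stayed close to those given, 76 moved and 3 reversed. With 75th percentile scaling the median of the members was -0.0031 at 1.25 and -0.15 at 20 µg/mL EEDS, and with no scaling it was -0.098 at 3.75 nM helveticoside, 0.51 at 5 and 0.47 at 20 µg/mL EEDS. These scalings also shifted the median of all genes, from -0.36 to 0.14 with 75th percentile scaling and from -0.33 to 0.27 with none.

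Members past 1.5-fold at 1.25, 5 and 20 µg/mL EEDS numbered 15, 30 and 21 with no scaling and 3, 7 and 8 against the other vehicle, with 1, 2 and 1, and 1, 1 and 1, past 2-fold. Of all genes 33.8, 39.8 and 54.7% were past 1.5-fold with no scaling, so at 5 µg/mL the members' 36.6% was near that of all genes, and 35.5, 43.3 and 52.2% against the other vehicle. With 75th percentile scaling they numbered 2 at 1.25 and 7 at 5 µg/mL, and with probes averaged 0 and 2. With signal as scanned or normexp there were 2 at 1.25 and 3 at 20 µg/mL, and with the deposited values 3 at 20 µg/mL. With helveticoside at 3.75, 15 and 60 nM they numbered 4, 3 and 6 against the other vehicle, with 2, 2 and 2 past 2-fold. With 75th percentile scaling they numbered 3 at 15 and 5 at 60 nM, with no scaling 6 at 60 nM, and with probes averaged 1 at 3.75 nM. Against the other vehicle, the members past 2-fold with helveticoside were RPL27A, near background, and the dim RPL3L. With EEDS it was RPL27A alone.

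Rising trends with EEDS numbered 0 with 75th percentile scaling, linear dose or 1 series, 1 without moderation by trend and 5 among genes well above background. Falling ones numbered 0 with signal as scanned, normexp, either scaling, the deposited values, 1 series or plain moderation, 3 among genes well above background and 4 with linear dose. Rising trends with helveticoside numbered 1 with signal as scanned, normexp, the deposited values or probes averaged and 0 with either scaling, 1 series, plain moderation or linear dose; linear dose gave 1 falling. Leaving out 1 array gave 0 to 3 rising and 0 falling with EEDS and 0 to 2 rising with helveticoside. With no scaling RPS4Y1 was 0.17 at 20 µg/mL EEDS, and with 75th percentile scaling the slope of RPL38 was -0.020. Of the 215 alternative values for single genes, 111 no longer passed the test. The 215 also hold log2 ratios, which have no test, so calls were lost more often than this share. Under the 19 alternatives the EEDS call held 3 times each for RPL38 and RPLP1. The helveticoside call held 2 times for RPS9 and 1 time for RPL37A. The cause of these changes was not tested. RPL27A, near background, and the brightest probe of RPS2, fixed by quantile normalization, carry no information on a change.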
